A study of Mus musculus and Homo sapiens with 9 samples.

Results

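The ZNF genes of human chromosome 19 were taken as the protein-coding genes of that chromosome whose symbol is ZNF, a number and at most 1 further letter in the GENCODE release 44 annotation of hg38. The symbol pattern found 246 genes, 16.7% of the 1476 protein-coding genes of the chromosome and part of 20033 in all. Peaks of 4 lists were counted at their promoters, over their gene bodies and over their last exons, beside the other 1230 protein-coding genes of chromosome 19. The choice of the genes used no peak.

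C2H2 zinc finger genes encode proteins in which repeated fingers, each held by a zinc ion between cysteines and histidines, read DNA sequence. Many carry a KRAB domain, which recruits the corepressor TRIM28 and through it the histone methyltransferase SETDB1, and many of these proteins silence retrotransposons. Their last exon usually holds the whole array of fingers as tandem repeats joined by a conserved linker, and these exons are known sites of H3K9me3. R-loops are RNA:DNA hybrids with a displaced DNA strand, and they are common at CpG-rich promoters.

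The study used CUT&Tag, in which a transposase tethered to an antibody tags the DNA nearby, to map R-loops with the S9.6 antibody against RNA:DNA hybrids and to map MCM8, a helicase of the MCM family. The 4 lists come from wildtype HEK293 cells, a line of human embryonic kidney, with 1 library in each group. The groups were mouse IgG as the background control, anti-FLAG in cells transfected with a FLAG-MCM8 plasmid, S9.6 in cells whose label names no plasmid, and S9.6 again after transfection of a plasmid that the label calls RNH1. In the study RNH1 stands for RNase H1, which removes hybrids by cutting their RNA strand. The mouse fibroblast libraries of the series hold no human genes and were not used here. With 1 library in a group a condition and its library cannot be told apart, no test between conditions was possible, and every interval below is a 95% interval that covers counting error only. Neighbouring members can share a start site or a peak and are not independent.

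The lists held 17178 (IgG), 13295 (FLAG-MCM8), 15147 (S9.6) and 12497 (RNH1) peaks on nuclear chromosomes, of which 450, 485, 732 and 681 lay on chromosome 19. Depth recovered from the background level of each list was between 8314 and 11050 fragments per Mb, lowest in FLAG-MCM8. As a check of the labels, FLAG-MCM8 had 3 peaks over MCM8 and IgG had none. The S9.6 and RNH1 lists each had 1 peak over MCM8 whose bounds equalled those of the strongest FLAG-MCM8 peak there (fold 19.7 and 17.7, against 21.6), although neither label names the FLAG-MCM8 plasmid. Peak numbers on chromosome 19 were not consecutive everywhere. Between 140 and 171 numbers per list were skipped, and 12 (IgG), 24 (FLAG-MCM8), 18 (S9.6) and 26 (RNH1) members overlapped a stretch between peaks where numbers were skipped, so a peak there may be missing from what was counted.

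The annotation bore out the name of the group. Each of the 246 members encoded at least 1 C2H2 finger (median 12, at most 36), and 180 (73.2%) matched a KRAB pattern, against 22 (1.79%) of the other chromosome 19 genes. The last exon had a median length of 3376 bp in members and 733 bp in the others, with a median GC content of 40.7% and 57.0%. The 14-base linker motif ACNGGNGANAANCC, searched on the coding strand, was found in the last exon of 212 members (86.2%) and of 24 other genes (1.95%).

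Sequences around peak summits inside the coding part of last exons are shown because such peaks were few. They are read 5′ to 3′ on the strand of the gene from hg38, and capitals mark a match to the linker motif. ZNF816 (IgG, chr19:52950157-52950257, minus strand, exon 4) was among the members with the strongest such IgG peaks. ZNF730 (FLAG-MCM8, chr19:23146485-23146553, plus strand, exon 4) and ZNF428 (RNH1, chr19:43607844-43607944, minus strand, exon 3) had the only such peaks of their lists, and in S9.6 all 3 summits in last exons fell in the 3′ UTR.
ZNF816: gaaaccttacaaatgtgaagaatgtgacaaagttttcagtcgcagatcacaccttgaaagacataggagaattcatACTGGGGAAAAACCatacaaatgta
ZNF730: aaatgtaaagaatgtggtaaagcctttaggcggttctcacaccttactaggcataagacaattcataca
ZNF428: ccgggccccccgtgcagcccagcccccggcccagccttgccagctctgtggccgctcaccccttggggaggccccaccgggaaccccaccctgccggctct

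The ZNF816 and ZNF730 windows were 36.6% and 37.7% GC and held 1 CpG each, over 101 and 69 bp. The ZNF730 window is the shorter, and its lack of a linker match holds for those bases only. Its last bases lie past the end of the peak at 23146543. The last exon of ZNF730 held 6 linker matches. The ZNF428 window stood apart with 78.2% GC and 6 CpG. ZNF428 encoded a single finger by the pattern searched and had no linker in its last exon.

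Summit windows of the 2 strongest S9.6 and the 2 strongest FLAG-MCM8 promoter peaks are shown as the counterpart at start sites, with CG in capitals. They are from ZNF790 (S9.6, chr19:36838641-36838701, minus strand), ZNF566 (S9.6, chr19:36489616-36489645, minus strand), ZNF497 (FLAG-MCM8, chr19:58362570-58362630, minus strand) and ZNF460 (FLAG-MCM8, chr19:57280322-57280382, plus strand).
ZNF790: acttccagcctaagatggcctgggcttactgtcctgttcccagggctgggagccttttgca
ZNF566: cCGgccttgataCGtctctgactaCGcttc
ZNF497: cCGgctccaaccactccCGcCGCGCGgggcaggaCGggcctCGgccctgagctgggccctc
ZNF460: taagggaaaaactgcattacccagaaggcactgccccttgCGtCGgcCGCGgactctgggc

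These windows were 57.4%, 56.7%, 80.3% and 60.7% GC, and the ZNF790 window held 0 CpG against 7 in that of ZNF497.

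At promoters, fewer ZNF genes than other chromosome 19 genes had a FLAG-MCM8 peak. A promoter peak is one whose midpoint lies within 1 kb of the start site (TSS) of any transcript of the gene. FLAG-MCM8 had promoter peaks at 15 of 246 members (6.10%, 3.73 to 9.82%) and 208 of 1230 other genes (16.9%), where 12% of all protein-coding genes had one. The difference of -10.8 percentage points (-14.0 to -6.60) was beyond counting error. S9.6 had promoter peaks at 61 members (24.8%, 19.8 to 30.6%) and 373 other genes (30.3%), with 30.1% over all protein-coding genes. In the RNH1 list there were 51 members (20.7%, 16.1 to 26.2%) and 306 other genes (24.9%), with 24.6% over all. The differences of -5.53 points (-11.2 to 0.749) in S9.6 and -4.15 points (-9.37 to 1.83) in RNH1 were within counting error. IgG had promoter peaks at 7 members (2.85%, 1.39 to 5.76%) and 75 other genes (6.10%), against 5.59% over all, a difference of -3.25 points (-5.33 to -0.102) whose upper bound lay close to 0.

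**Figure D1:**
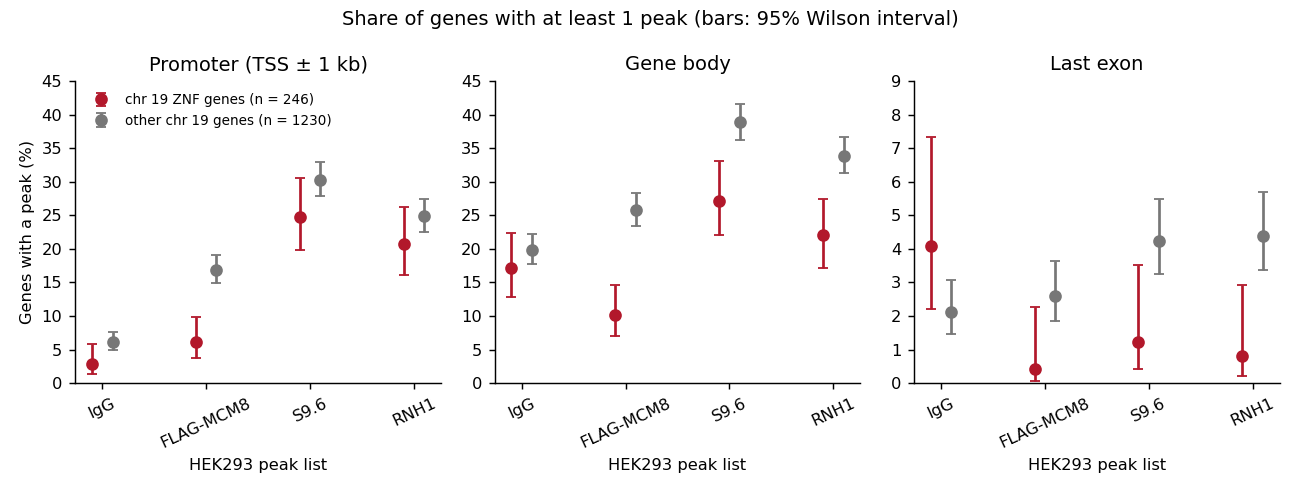
Percentage of genes with at least 1 peak at the promoter, over the gene body and over the last exon (vertical axes, each with its own range) in the 4 HEK293 lists (horizontal axis), for the 246 chromosome 19 ZNF genes and the 1230 other chromosome 19 genes. Points are shares and bars 95% Wilson intervals. In FLAG-MCM8 the ZNF share lies below that of the other genes in all 3 panels, while over last exons the IgG share of ZNF genes (4.07%) is the highest of the 4 lists.

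The promoter result depended on which start sites and peaks were counted. With only the TSS of the canonical transcript, FLAG-MCM8 peaks were found at 14 members (5.69%) and 123 other genes (10.0%), a smaller difference of -4.31 points (-7.21 to -0.357). The S9.6 difference then changed sign, with 59 members (24.0%) against 259 other genes (21.1%) and 2.93 points (-2.52 to 9.04), and so did that of RNH1, with 46 members (18.7%) against 196 (15.9%) and 2.76 points (-2.11 to 8.45). The IgG difference was then -0.650 points (-1.87 to 1.74), within counting error. Peaks of fold 4 or more alone also turned the sign, to 0.0813 points (-5.21 to 6.09) for S9.6 and 2.76 points (-2.26 to 8.56) for RNH1. A wider window of 3 kb moved both the other way and beyond counting error, to -10.9 points (-16.7 to -4.48) for S9.6 and -11.2 points (-16.6 to -5.10) for RNH1. Without genes in stretches of skipped peak numbers S9.6 gave -7.56 points (-13.2 to -1.13), beyond counting error, and IgG gave -2.96 points (-5.10 to 0.319), within it. Such a stretch is bounded by kept peaks. Leaving it out therefore also removed members whose own S9.6 promoter peak bounds it, such as ZNF558 and ZNF566. The S9.6 shift thus cannot be read as the effect of missing peaks. The FLAG-MCM8 difference stayed beyond counting error under all 9 alternatives run. The median number of distinct start sites was 5 in both sets, and the windows around them covered a median of 4.05 kb in members and 4.35 kb in the others.

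Promoter GC content moved with these shares. The median GC of the 1 kb around the canonical TSS was 58.4% in members and 62.0% in the other genes. Peaks, however, were counted at any TSS of a gene. With the canonical TSS only, FLAG-MCM8 peaks were at 123 rather than 208 other genes, and at 14 rather than 15 members. Some peaks counted below therefore lay at start sites whose GC was not measured. When the 1476 genes were cut into 3 groups at 58.4% and 64.5% GC, S9.6 had peaks at 16.4%, 29.9% and 40.5% of members from the lowest to the highest group, beside 17.7%, 32.1% and 38.9% of the other genes. In RNH1 these shares were 13.1%, 26.4% and 32.4% of members and 13.6%, 26.7% and 32.3% of the others. In neither list did members and other genes differ beyond counting error within a GC group, with intervals that reached 18.2 points. FLAG-MCM8 differed. It had peaks at 0 of 122 members of the lowest group, which allows a share of up to 2.46% at 3 counts (upper Wilson limit 3.05%), against 47 of 367 other genes (12.8%), a difference of -12.8 points (-16.6 to -8.50). In the middle group there were 8 of 87 members (9.20%) and 72 of 408 others (17.6%), a difference of -8.45 points (-14.4 to 0.158). In the highest group the shares were 18.9% (7 of 37) and 19.6% (89 of 455), a difference of -0.642 points (-10.9 to 15.0). Without the 14 members of the lowest group in stretches with skipped FLAG-MCM8 numbers, the count was 0 of 108 against 47 of 347 (13.5%). The IgG control also had lower shares in members in the 2 lower groups, with few peaks. Its shares were 1.64% against 5.45%, 2.30% against 5.15% and 8.11% against 7.47%, from the lowest to the highest group. The differences of -3.81 points (-6.87 to 0.744), -2.85 (-5.93 to 3.12) and 0.636 (-5.36 to 14) were within counting error. The part of GC content in the difference between members and other genes was not tested beyond these groups.

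**Figure D2:**
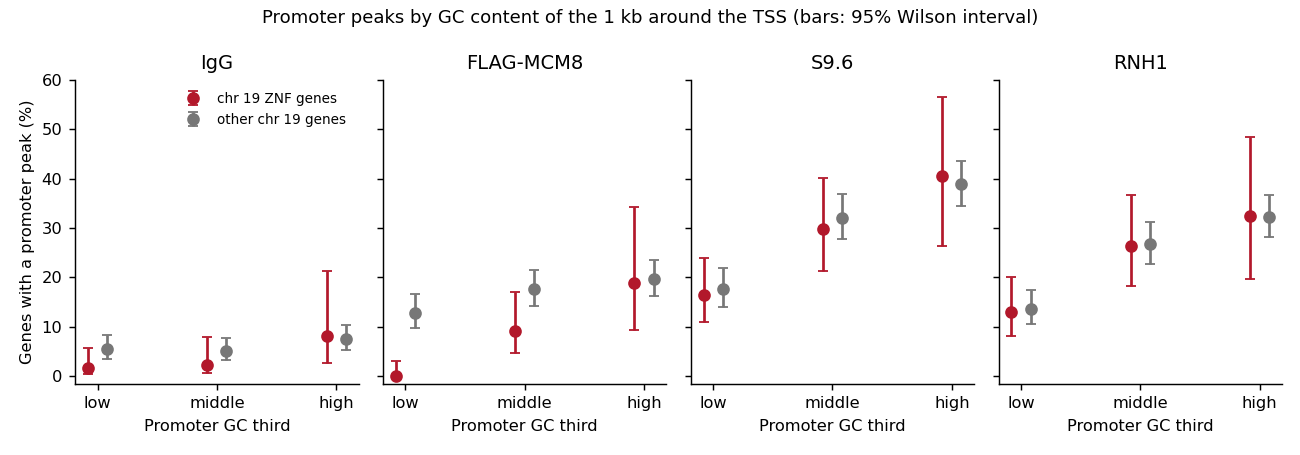
Percentage of genes with a promoter peak at any TSS (vertical axis) in 3 groups by GC content of the 1 kb around the canonical TSS, 1 panel for each list. On the horizontal axis low is below 58.4% and high from 64.5%. Points are shares of the chromosome 19 ZNF genes and of the other chromosome 19 genes, with 95% Wilson intervals. The S9.6 and RNH1 points of both sets lie together in each GC group. In the low group the ZNF share is 0 beside 12.8% in FLAG-MCM8, and 1.64% beside 5.45% in IgG.

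Promoter peaks of members lay close to start sites in the S9.6 and RNH1 lists. Of 63 S9.6 promoter peaks, 49 had their summit within 250 bp of a TSS of the member, as did 40 of 51 in RNH1, 9 of 17 in FLAG-MCM8 and 2 of 7 in IgG. The enrichment is the authors' fold of fragments at the summit over the local background. Its median over members' promoter peaks was 5.23 in S9.6 (3.19 to 10.8) and 5.07 in RNH1 (3.63 to 8.16), beside 4.58 and 4.26 for promoter peaks of the other chromosome 19 genes. The higher fold did not come with more fragments. Median fragments at the summit were 20 in S9.6 and 22 in RNH1 for members, beside 25 and 28 for the others. In FLAG-MCM8 the median fold was 4.62 in members and 4.89 in the others. The 7 IgG promoter peaks were weak (median 3.79), and the strongest lay at ZNF584 (fold 4.38), ZNF284 (4.15), ZNF555, ZNF552 (3.79 each) and ZNF761 (3.67).

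The strongest S9.6 promoter peak was that of ZNF790, a KRAB gene with 12 fingers by the patterns searched. It had fold 10.8, 53 fragments at the summit and a −log10 q of 36.2, rank 119 in its list, with the summit at -284 bp from the TSS (negative positions lie upstream). The RNH1 list had a peak over the same place with fold 6.25 and 28 fragments, and IgG had none there. FLAG-MCM8 had none either, but ZNF790 lies in a stretch where 7 numbers of that list were skipped. The window of this summit is the CpG-free sequence printed above, 61 bp of a peak of 971 bp. The promoter as a whole was not poor in CpG. The 1 kb around its canonical TSS had 58.3% GC and a ratio of observed to expected CpG of 0.760, beside a median of 0.711 in members. ZNF566 followed with fold 8.42 in S9.6 (40 fragments) and 5.21 in RNH1 (25 fragments). ZNF490 and ZNF791 are transcribed in opposite directions from neighbouring start sites and shared 1 S9.6 peak (fold 8.44) and 1 RNH1 peak (fold 5.18). At ZNF581 the S9.6 peak had fold 5.88 and 43 fragments, and the RNH1 list had no promoter peak.

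The strongest promoter peaks of the RNH1 list were also found in S9.6, in part with a lower fold. ZNF564 had fold 8.16 and 32 fragments in RNH1 and fold 5.78 and 21 fragments in S9.6, with both summits at the same base, -56 bp from its TSS. ZNF585B and ZNF383, a further pair with neighbouring start sites, shared a peak of fold 8.04 in RNH1 and 6.29 in S9.6. ZNF471 had fold 7.23 in RNH1 and 7.66 in S9.6, and ZNF331, an imprinted gene, had 6.59 and 6.09. These are values of 1 library each, with no replicate error.

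FLAG-MCM8 promoter peaks were led by ZNF497, a gene with 14 fingers and no KRAB match. Its peak had fold 7.57 and 25 fragments (−log10 q 13.3, rank 205), beside fold 5.62 in S9.6 and 4.32 in RNH1. The ZNF460 peak had fold 6.67 in FLAG-MCM8 and 6.62 in S9.6, with none in RNH1. ZNF331 (fold 6.40), ZNF414 (5.32) and ZNF524 (5.15) came next, and each of these also had an S9.6 and an RNH1 promoter peak. IgG had no promoter peak at any of these 5 members.

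**Figure D3:**
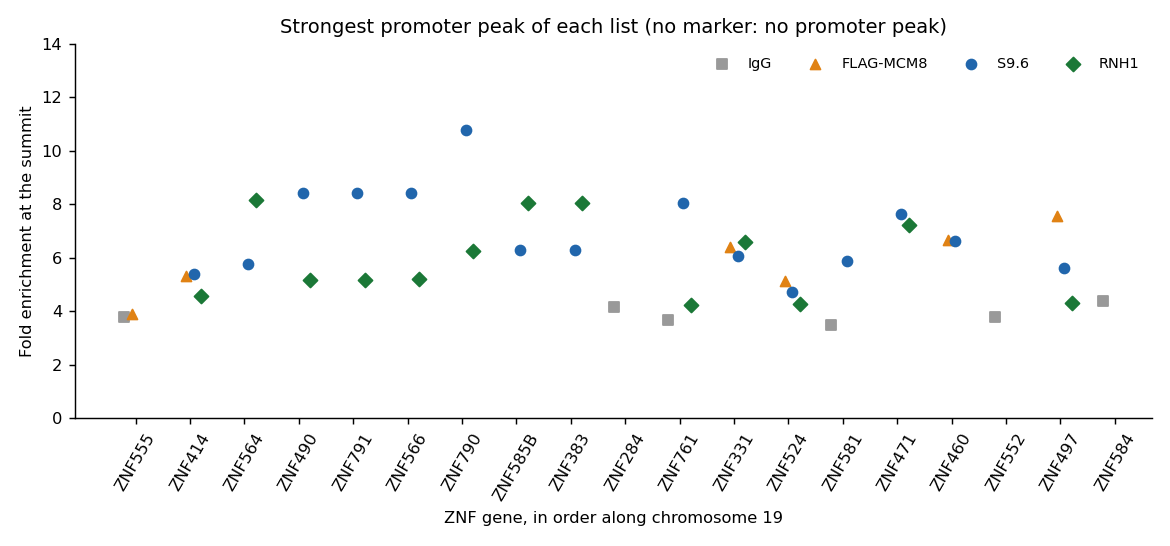
Fold enrichment at the summit of the strongest promoter peak (vertical axis) of the members with the 5 strongest promoter peaks of each list, in order along chromosome 19 (horizontal axis); a missing marker means no promoter peak. ZNF490 and ZNF791 share their peaks, as do ZNF585B and ZNF383. S9.6 is highest at ZNF790 (10.8) and RNH1 at ZNF564 (8.16), and the IgG markers lie between 3.48 and 4.38.

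The question of the study in these cells was whether MCM8 sites lie at R-loops, with RNase H1 as the control for S9.6. Of the 15 members with a FLAG-MCM8 promoter peak, 11 (73.3%, 48.0 to 89.1%) also had an S9.6 promoter peak, against 138 of 208 other genes (66.3%), a difference of 6.99 points (-19.0 to 24.1) that was within counting error. Read from the S9.6 side, the share was lower in members. FLAG-MCM8 promoter peaks were also less frequent in members without regard to S9.6 (6.10% against 16.9%), so the next values are not a separate result about co-occurrence. A FLAG-MCM8 promoter peak was found at 11 of the 61 members with an S9.6 promoter peak (18.0%, 10.4 to 29.5%) and at 138 of 373 other genes (37.0%), a difference of -19.0 points (-28.1 to -6.58). From the RNH1 list the shares were 10 of 51 (19.6%) and 128 of 306 (41.8%), a difference of -22.2 points (-32.5 to -8.29).

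The RNH1 list kept about the same share of S9.6 promoters in both sets. Of the 61 members with an S9.6 promoter peak, 36 (59.0%, 46.5 to 70.5%) also had one in RNH1, against 222 of 373 other genes (59.5%), a difference of -0.501 points (-13.9 to 12). The number of members with a promoter peak was 0.836 times as large in RNH1 as in S9.6, beside 0.820 in the other genes. A promoter peak in 1 or more lists was found at 83 members (33.7%) and 546 of the other genes (44.4%), a difference of -10.7 points (-16.9 to -3.94). The combination found most often was S9.6 with RNH1 (26 members, 10.6%, beside 8.05% of the other genes). S9.6 alone (22, 8.94% beside 9.51%), RNH1 alone (14, 5.69% beside 5.04%) and FLAG-MCM8 with both (9, 3.66% beside 8.21%) followed. These 9 were ZNF414, ZNF653, ZNF627, ZNF428, ZNF808, ZNF331, ZNF524, ZNF497 and ZNF837, named after their values were seen. A promoter peak in all 4 lists was found at 0 members and at 11 of 1230 other genes (0.894%), a difference of -0.894 points (-1.59 to 0.693) that was within counting error.

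Over last exons, where the finger arrays lie, IgG had more members with a peak than any of the other lists. A peak counted if at least 1 bp fell in the last exon of the canonical transcript. IgG had such peaks at 10 members (4.07%, 2.22 to 7.32%) and 26 other genes (2.11%), with 1.73% over all protein-coding genes. S9.6 had them at 3 members (1.22%) and 52 other genes (4.23%), with 2.61% over all. RNH1 had them at 2 members (0.813%) and 54 other genes (4.39%), with 2.36% over all, and FLAG-MCM8 at 1 member (0.407%) and 32 other genes (2.60%), with 1.72% over all. The differences were 1.95 points (-0.129 to 5.27) for IgG, -3.01 (-4.51 to -0.501) for S9.6, -3.58 (-5.00 to -1.24) in RNH1 and -2.20 (-3.30 to -0.189) in FLAG-MCM8. The differences of S9.6, RNH1 and FLAG-MCM8 were beyond counting error here but not under every alternative. With peaks of fold 4 or more they were -1.38 (-2.53 to 0.828), -0.732 (-1.77 to 1.44) and -1.87 (-2.92 to 0.116), and with the summit inside the last exon -1.46 (-2.79 to 0.965), -2.03 (-3.27 to 0.214) and -1.71 (-2.73 to 0.269), all within counting error. The IgG difference, in contrast, was beyond counting error under 5 of 10 alternatives, among them 2.28 (0.526 to 5.34) with fold 4 or more and 2.60 (0.578 to 5.90) with the summit inside.

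Long exons offer more room for a peak, so counts were divided by length. The merged last exons covered 0.922 Mb in members and 1.48 Mb in the others. S9.6 had 3.26 peaks per Mb in members and 33.8 in the others, a ratio of 0.0962 (0.0300 to 0.308). The ratio was 0.0629 (0.0153 to 0.258) in RNH1 and 0.0501 (0.00685 to 0.367) in FLAG-MCM8, where it rests on 1 peak. IgG had 10.9 and 16.9 peaks per Mb, a ratio of 0.641 (0.308 to 1.34) that was within counting error of 1. Among last exons of at least 1500 bp, S9.6 had peaks at 2 of 228 members and 21 of 324 other genes (6.48%), and IgG at 10 of 228 (4.39%) and 15 of 324 (4.63%). GC content differed as well (medians of 40.7% and 57.0%, above), and its part in these ratios was not tested.

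**Figure D4:**
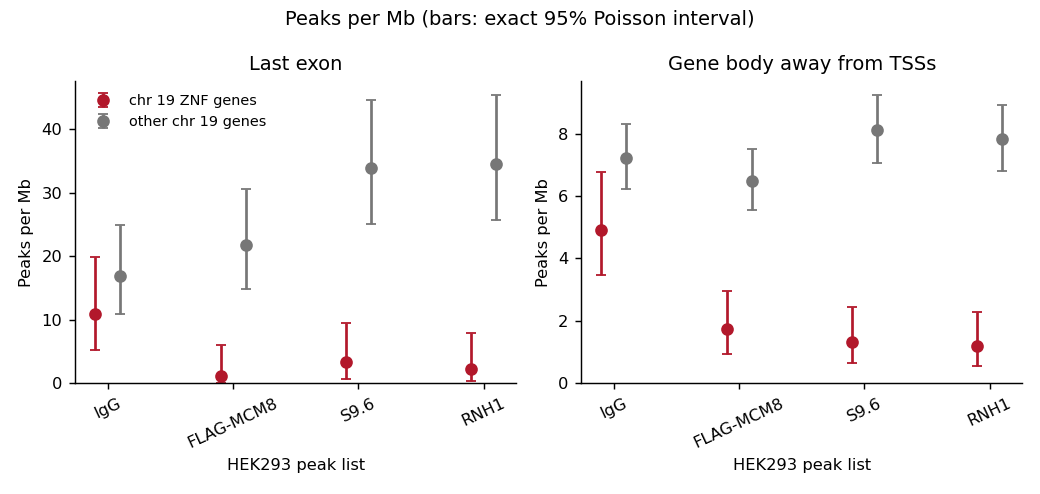
Peaks per Mb (vertical axes, each with its own range) over last exons and over gene bodies, the latter for peaks more than 1 kb from any TSS, in the 4 HEK293 lists (horizontal axis) for chromosome 19 ZNF genes and other chromosome 19 genes. Bars are exact 95% Poisson intervals. In both panels the ZNF points of FLAG-MCM8, S9.6 and RNH1 lie below 4 peaks per Mb, and those of IgG at 10.9 and 4.92.

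Peaks in more than 1 list were found over the last exon of 0 members and of 30 of 1230 other genes (2.44%), where 16 members and 133 other genes had a peak in any list. The 16 members with such a peak were 10 in IgG, 3 in S9.6, 2 in RNH1 and 1 in FLAG-MCM8. The strongest IgG peak lay in the 3′ UTR of ZNF845 (fold 5.79, 25 fragments), a gene with 26 fingers. ZNF816 (fold 5.42, 23 fragments), ZNF492 (5.30, 24), ZNF43 (5.30, 22) and ZNF675 (4.84, 20) followed, each with its summit in coding sequence. Of these 5 members, ZNF816, ZNF845 and ZNF43 had a promoter peak in RNH1, and ZNF43 also in S9.6.

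The last-exon peaks of FLAG-MCM8, S9.6 and RNH1 lay at 6 members. The FLAG-MCM8 peak at ZNF730 had fold 4.62 and 12 fragments, where the lowest peak of that list had 10. The S9.6 peaks at ZNF580 (fold 5.88) and ZNF584 (fold 5.05) were also counted near a TSS, that at ZNF580 being the promoter peak of its neighbour ZNF581. ZNF431 was the only member with an S9.6 peak in the last exon away from any TSS (fold 3.97, 12 fragments, in the 3′ UTR). The RNH1 peaks were at ZNF428 (fold 4.01, 19 fragments) and ZNF875 (fold 4.46, 16 fragments, in the 3′ UTR), and ZNF428 also had the GC-rich window printed above.

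Over gene bodies, too, fewer members than other genes had a peak in the 3 antibody lists besides IgG. At least 1 bp of a peak lay within 25 members in FLAG-MCM8 (10.2%, 25.9% over all genes), 67 in S9.6 (27.2%, 39.2% over all), 54 in RNH1 (22.0%, 33.0% over all) and 42 in IgG (17.1%, 25.4% over all). The differences from the other chromosome 19 genes were -15.6 points (-19.7 to -10.6), -11.6 (-17.5 to -5.16), -12.0 (-17.4 to -5.80) and -2.76 (-7.55 to 2.86), the last within counting error but -4.63 (-8.15 to -0.111) at a q of 1e-05 or lower. With peaks of fold 4 or more, the S9.6 and RNH1 differences were -3.41 and -0.976 points, both within counting error. Members spanned a median of 25900 bp against 13900 bp, and most of their S9.6 and RNH1 body peaks were at start sites. Of the body peaks, 10 of 72 in S9.6, 9 of 58 in RNH1, 13 of 27 in FLAG-MCM8 and 37 of 44 in IgG were more than 1 kb from any TSS. Per Mb of gene body these gave 1.33, 1.20, 1.73 and 4.92 peaks, which were 0.164 (0.0869 to 0.309), 0.153 (0.0785 to 0.298), 0.266 (0.152 to 0.468) and 0.681 (0.479 to 0.967) times the values of the other genes. Of the 37 IgG peaks, 26 had their summit in an intron or outside the canonical transcript, 7 in coding sequence and 4 in a 3′ UTR.

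Along the chromosome the members fell into 20 clusters, separated by gaps of more than 500 kb. In the cluster from ZNF101 to ZNF254, with 37 members between 19668796 and 24129968, FLAG-MCM8 and IgG had promoter peaks at 0 members, S9.6 at 7 (18.9%) and RNH1 at 4 (10.8%). A count of 0 of 37 leaves an upper Wilson limit of 9.41%. This cluster held 4 of the 10 IgG last-exon peaks and the single one of FLAG-MCM8, and its span had 23 IgG, 17 S9.6, 8 RNH1 and 4 FLAG-MCM8 peaks. Of its members, 7 lay in stretches with skipped FLAG-MCM8 numbers.

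Among the 8 clusters of 10 or more members, promoter peaks of S9.6 were most frequent in those from ZNF653 to ZNF791 (11 of 25 members, 44%) and from ZNF565 to ZNF573 (11 of 26, 42.3%). The former had FLAG-MCM8 peaks at 4 members and RNH1 peaks at 10. The latter had RNH1 peaks at 9 members and FLAG-MCM8 peaks at 0 of 26, but 15 of the 26 lay in a stretch where 7 FLAG-MCM8 numbers were skipped. S9.6 and RNH1 stood in opposite order in 2 large clusters. From ZNF175 to ZNF331 (39 members) S9.6 had 8 members with a promoter peak and RNH1 had 14, whereas from ZNF264 to ZNF446 (43 members) S9.6 had 10 and RNH1 had 4. The Wilson intervals of the lists overlapped in both clusters (10.8 to 35.5% and 22.7 to 51.6%, then 13.2 to 37.7% and 3.68 to 21.6%). From ZNF575 to ZNF180 (23 members) there were 3 in S9.6 and 1 in RNH1. Of the 23, 20 lay in a stretch where a single RNH1 number was skipped, so at most 1 RNH1 peak can be missing there.

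**Figure D5:**
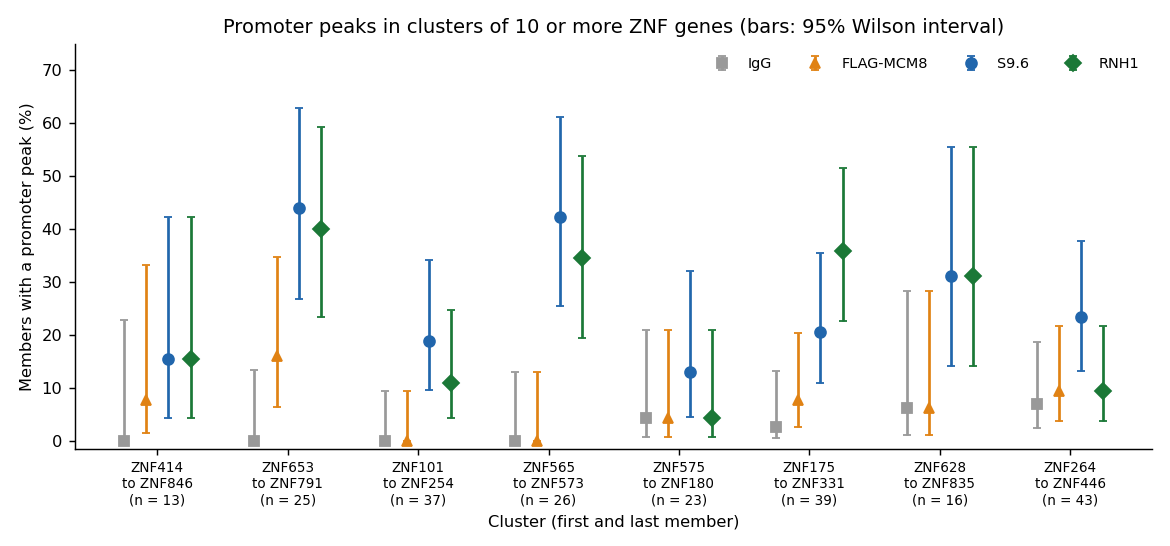
Percentage of members with a promoter peak (vertical axis) in the 8 clusters of 10 or more ZNF genes, in order along chromosome 19 (horizontal axis, first and last member and number of members), in the 4 lists. Bars are 95% Wilson intervals. FLAG-MCM8 lies at 0 in the clusters from ZNF101 to ZNF254 and from ZNF565 to ZNF573, where S9.6 is at 18.9% and 42.3%.

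Members with known roles were looked up by name. ZNF91 and ZNF93, which repress SVA and LINE-1 retrotransposons, had no peak in any list, and neither had ZNF45 or ZNF180. Of these 4, ZNF91 lies in a stretch where 122 FLAG-MCM8 numbers were skipped, and ZNF45 and ZNF180 in a stretch where 1 RNH1 number was skipped. The FLAG-MCM8 stretch runs on to 27793416, far past ZNF91, and where in it the skipped numbers lay is not known. In the other lists the stretch with the most skipped numbers began at 23969660 or later, past the end of ZNF91 at 23395471. ZNF274, which itself binds the 3′ ends of ZNF genes and recruits SETDB1, had a single peak, in S9.6 over a coding exon that was not its last (fold 4.27, 14 fragments). ZNF43 had S9.6 and RNH1 promoter peaks (fold 6.76 and 5.43) at its TSS besides its IgG peak. ZNF431 had an S9.6 promoter peak of fold 4.88, and ZNF382 had an RNH1 promoter peak of fold 4.58 and an IgG peak in its last exon of fold 3.91. ZNF331 carried an intronic peak in all 4 lists between 53558887 and 53560366, more than 3 kb downstream of its nearest start site. The strongest there had fold 5.60 in the IgG list (49 fragments, rank 82), 6.37 with FLAG-MCM8, 5.33 with S9.6 and 4.94 with RNH1, so the place was enriched in IgG as well. No peak of any list lay at the promoter, over the body or over the last exon of 128 of the 246 members. That count was not made for the other genes. Over gene bodies alone, 131 members (53.3%) and 469 of 1230 other chromosome 19 genes (38.1%) had no peak in any list.

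Features of the members were set beside their promoter peaks. Members with and without the KRAB pattern had S9.6 promoter peaks with overlapping intervals, at 44 of 180 (24.4%, 18.7 to 31.2%) and 17 of 66 (25.8%, 16.7 to 37.4%). In FLAG-MCM8 these were 9 of 180 (5.00%, 2.65 to 9.23%) and 6 of 66 (9.09%, 4.23 to 18.4%), with overlapping intervals. The 13 members with a divergent start site nearby had S9.6 promoter peaks in 7 cases (53.8%, 29.1 to 76.8%). Of the rest, 54 of 233 had one (23.2%, 18.2 to 29.0%). The 7 cases were not independent, because ZNF490 and ZNF791 shared 1 peak, as did ZNF565 and ZNF146. The interval counts these genes separately and is too narrow, so it cannot show a difference from the rest. The higher share was not particular to members. Among the other chromosome 19 genes, 71 of 129 divergent genes had an S9.6 promoter peak, beside 373 of all 1230 (30.3%). Divergent promoters made up 5.28% of members and 10.5% of the other genes.

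ZNF genes on other chromosomes, 262 by the same symbol pattern, carried FLAG-MCM8 more often. Promoter peaks of FLAG-MCM8 were at 34 of these (13.0%), and the chromosome 19 members differed from them by -6.88 points (-12.1 to -1.75). In S9.6 the difference of -6.12 points (-13.8 to 1.70) was within counting error. IgG promoter peaks, too, were less frequent in the chromosome 19 members, with a difference of -5.93 points (-10.2 to -1.85). Over last exons no list differed between both groups of ZNF genes beyond counting error.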

How the data were processed

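CUT&Tag peak lists of 4 HEK293 libraries were used. Per the study's methods and notes the authors aligned reads to hg38 with Bowtie2 and called peaks with MACS2 (2.1.2 in the submitters' processing notes), with 1 list per library. The deposited columns used were the fold enrichment (ratio), −log10 p and −log10 q at the summit, and the summit's offset. Mitochondrial peaks were left out. Fragments at each summit were solved from fold and −log10 p with the MACS2 pseudocount of 1, and depth was taken as the lowest background over the shortest peak width. Solving and counting were tested on simulated data.

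Shares have Wilson intervals, differences Newcombe intervals, and ratios of peaks per Mb Poisson intervals on the log scale (Python 3.11.15, scipy 1.17.1). Fingers and KRAB matches were found in translations of GENCODE canonical coding sequences read from hg38, in place of RefSeq proteins. Members named are the 5 strongest by q per list at promoters and at last exons, and 9 fixed by name. Members and lists were chosen with earlier results of these data known. The window of 1 further last-exon summit is not reported here.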

Additional observations from a re-analysis of the deposited data

How the results depend on the processing

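Of 125 values under alternatives, 107 stayed within the interval of the value reported and 18 moved out of it. Promoter differences (members less other chromosome 19 genes, percentage points) within 3 kb of a TSS were -6.34 in IgG, -14.5 in FLAG-MCM8 and -11.2 in RNH1. With the canonical TSS only they were -4.31 for FLAG-MCM8, 2.93 for S9.6 and 2.76 for RNH1. With a fold of at least 4, RNH1 gave 2.76 at promoters, -0.976 over gene bodies and -0.732 over last exons, and S9.6 gave -3.41 over gene bodies. FLAG-MCM8 over gene bodies gave -9.27 at a q of 1e-05 or lower and -7.32 without peaks at TSSs, and -3.50 over last exons of all protein-coding transcripts. Among last exons of at least 1500 bp the differences were -0.244 (IgG), -4.50 (FLAG-MCM8), -5.60 (S9.6) and -5.73 (RNH1). The FLAG-MCM8 promoters with an S9.6 promoter peak gave 27.4 (-16.7 to 36.1) at a q of 1e-05 or lower, within counting error. The cause of these moves was not tested. Whether the interval excluded 0 changed under 3 of 8 alternatives for IgG at promoters, 2 of 9 for S9.6 and 1 of 9 for RNH1, and over last exons under 5 of 10 for IgG, 5 of 11 for FLAG-MCM8, and 4 of 11 each for S9.6 and RNH1. Leaving out genes in stretches with skipped peak numbers, chosen after seeing the data, changed this for IgG and S9.6 at promoters. In S9.6 that step also removed genes whose own kept promoter peak bounds a stretch. No paired analysis was possible because each group holds 1 library. The lowest peak needed between 10 and 14 fragments at its summit, so weaker enrichment was not detectable.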

Other observations

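The partners through which KRAB zinc finger proteins silence DNA were counted as a list of 25 genes. Promoter peaks were found at 13 of them in S9.6 (52.0%, 33.5 to 70.0%), 12 in RNH1 (48.0%), 5 in FLAG-MCM8 (20.0%) and 4 in IgG (16.0%), beside 30.1%, 24.6%, 12% and 5.59% of all protein-coding genes. TRIM28, the corepressor that KRAB domains bind, had no promoter peak in any list. SETDB1, its histone methyltransferase, had 1 in S9.6 (fold 5.74, 26 fragments). CBX5, which encodes HP1 alpha, a reader of H3K9me3, had promoter peaks in all 4 lists, the strongest with fold 7.45 in FLAG-MCM8, 5.77 in S9.6, 4.47 in RNH1 and 4.37 in IgG. CBX3, which encodes HP1 gamma, had fold 7.75 in S9.6, 5.73 in FLAG-MCM8 and 4.59 in RNH1.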
